A study of Mus musculus with 10 samples.

Results

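The genes described here are 7 transcripts used as markers of the pyramidal cells of hippocampal field CA1: Wfs1, Fibcd1, Mpped1, Pou3f1, Man1a, Dcn and Ccn3, the last also known under its older symbol Nov. They were chosen by name, and each matched 1 of the 22255 rows of the gene table by its Ensembl identifier. RNA came from hippocampal synaptoneurosomes, a fraction enriched in pinched-off synaptic endings, of wild-type C57Bl/6J mice. 5 libraries were from mice given vehicle and 5 from mice given AM6545 sub-chronically, and the dose, age and sex are not given in the sources used here. AM6545 blocks the cannabinoid receptor CB1 and acts mainly outside the brain. No source states whether a library is 1 animal or a pool, so p-values measure only the spread between libraries.

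CA1 is the output field of the hippocampal circuit: its pyramidal cells receive Schaffer collateral input from CA3 and project to the subiculum and cortex. Field-specific transcription sets these cells apart from CA3 pyramidal cells and dentate granule cells, and it also varies along the long axis of the hippocampus, with Wfs1 known as a dorsal and Dcn as a ventral CA1 marker. The proteins sit in different places. Wfs1 encodes wolframin, a membrane glycoprotein of the endoplasmic reticulum, and Man1a a Golgi mannosidase that trims N-linked glycans. Fibcd1 encodes a membrane receptor for acetylated ligands, Dcn the secreted proteoglycan decorin, Ccn3 a secreted matricellular protein of the CCN family, Pou3f1 a POU-domain transcription factor and Mpped1 a protein with a metallophosphoesterase domain.

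All 7 genes were well covered, with 740 to 6489 estimated counts per gene and library, and all passed the expression filter. Library totals ran from 18106112 to 25899794 counts. Expressed per transcript length as TPM (abundance relative to all transcripts of the library), the order of levels was Dcn, Ccn3, Mpped1, Wfs1, Fibcd1, Pou3f1 and Man1a. Dcn stood at 147 ± 32.3 TPM in vehicle and 172 ± 16.3 TPM in AM6545 libraries (SD, n = 5 each), a level above that of 92.2% of the genes tested. Man1a, the lowest, stood at 20.7 ± 5.84 and 21.7 ± 2.36 TPM (SD, n = 5 each), still above the median of 15.1 TPM over all genes tested. The order of Dcn and Ccn3 was not fixed, since Dcn was the higher in 6 of 10 libraries. Ccn3 exceeded Mpped1 in 9 of 10, and each later neighbour in the order was lower in 10 of 10.

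The label of the set could be checked only in part. Some markers of pyramidal cells in general were abundant, Neurod6 reaching 420 ± 51.9 and 368 ± 46.0 CPM (counts relative to the TMM-scaled library total) in vehicle and AM6545 libraries and Camk2a 339 ± 55.5 and 359 ± 31.9 CPM (SD, n = 5 each). Markers of the other fields were present too, among them the dentate gene C1ql2 at 150 ± 14.4 and 134 ± 26.8 CPM and the CA2 gene Rgs14 at 158 ± 24.3 and 149 ± 27.6 CPM (SD, n = 5 each). Levels within these lists differed widely. The pyramidal list also held Tbr1 (14.9 and 15.6 CPM) and Slc17a7 (858 and 883 CPM). The dentate list held Dsp (14.2 and 13.9 CPM) and Calb1 (281 and 292 CPM). In the CA2 and CA3 list Csf2rb2 was at 0.331 and 0.341 CPM. Nothing in the tables places a CA1 marker in a CA1 cell. In such bulk RNA fewer cells of a type and less RNA per cell cannot be told apart.

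By RefSeq on GRCm38.p6 the 7 genes lie on 5 chromosomes, and identifiers are given as in the gene table. Wfs1 (ENSMUSG00000039474.14) spans chr5:36966104-36988982, Fibcd1 (ENSMUSG00000026841.8) chr2:31813290-31846964 and Pou3f1 (ENSMUSG00000090125.4) chr4:124657646-124660655. Chromosome 15 carries Mpped1 (ENSMUSG00000041708.13) at chr15:83779472-83858487 and Ccn3 (ENSMUSG00000037362.9) at chr15:54745910-54753762. Chromosome 10 carries Man1a (ENSMUSG00000003746.17) at chr10:53904785-54076616 and Dcn (ENSMUSG00000019929.17) at chr10:97479500-97518163. The genes that share a chromosome are far apart.

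Start regions from RefSeq (build GRCm38.p6, 250 bases before to 50 after the start) were at hand for 4 of the 7 genes, and are shown because the transcript holding most counts of each of these genes starts inside its window in GENCODE M21. Wfs1 lies at chr5:36988933-36989232 on the minus strand, Fibcd1 at chr2:31845956-31846255 on the minus strand, Man1a at chr10:54075688-54075987 on the minus strand and Mpped1 at chr15:83779773-83780072 on the plus strand. The main transcript of Wfs1 starts 223 bases and that of Man1a 59 bases before the RefSeq start, those of Fibcd1 and Mpped1 at it. Marked letters can thus lie after the start of the main transcript. Capitals mark GGGCGG (the GC box) and CCAAT (the CCAAT box) on either strand.
Wfs1: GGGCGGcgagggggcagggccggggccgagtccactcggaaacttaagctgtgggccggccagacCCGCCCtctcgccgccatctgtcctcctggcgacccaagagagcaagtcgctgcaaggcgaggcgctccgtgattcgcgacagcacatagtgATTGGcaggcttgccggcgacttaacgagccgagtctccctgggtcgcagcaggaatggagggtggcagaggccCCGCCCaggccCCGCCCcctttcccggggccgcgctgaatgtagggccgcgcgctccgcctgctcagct
Fibcd1: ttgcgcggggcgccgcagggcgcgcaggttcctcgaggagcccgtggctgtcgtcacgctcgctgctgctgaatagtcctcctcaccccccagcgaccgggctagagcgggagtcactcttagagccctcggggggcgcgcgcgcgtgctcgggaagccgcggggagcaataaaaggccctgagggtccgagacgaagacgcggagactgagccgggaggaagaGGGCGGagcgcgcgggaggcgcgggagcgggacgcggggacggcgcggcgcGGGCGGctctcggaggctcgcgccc
Man1a: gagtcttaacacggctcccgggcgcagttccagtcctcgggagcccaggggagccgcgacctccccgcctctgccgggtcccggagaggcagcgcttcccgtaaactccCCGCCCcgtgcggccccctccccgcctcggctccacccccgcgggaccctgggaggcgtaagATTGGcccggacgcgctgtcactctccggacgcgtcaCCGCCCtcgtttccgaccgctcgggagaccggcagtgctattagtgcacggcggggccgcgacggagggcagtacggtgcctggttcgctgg
Mpped1: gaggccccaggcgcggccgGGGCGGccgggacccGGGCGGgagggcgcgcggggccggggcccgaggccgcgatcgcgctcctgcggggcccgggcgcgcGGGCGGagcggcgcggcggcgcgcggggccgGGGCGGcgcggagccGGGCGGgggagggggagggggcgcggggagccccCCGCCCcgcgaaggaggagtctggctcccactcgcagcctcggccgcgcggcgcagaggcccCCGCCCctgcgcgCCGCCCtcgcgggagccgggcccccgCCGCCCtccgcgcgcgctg

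The 4 windows were rich in G and C, at 70.0% in Wfs1, 72.7% in Man1a, 74.3% in Fibcd1 and 89.3% in Mpped1, where the median over 32851 windows of the same length was 52.7%. GGGCGG occurred in all 4, with 4 matches in Wfs1, 2 in Fibcd1, 2 in Man1a and 9 in Mpped1. Of all windows 35.7% held it. CCAAT occurred 1 time each in Wfs1 and Man1a, and 37.4% of all windows held it. The TATA box letters TATAAA had no match in these 4 windows on either strand (13.6% of all windows held them), nor did the CREB motif core TGACGT (7.51%), the E-box CACGTG (7.15%) or the EGR motif GCGGGGGCG (2.91%), whose letters can overlap those of a GC box. A match describes letters and is not a bound site.

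The comparison of AM6545 with vehicle addressed CA1 marker RNA after the drug. No difference was called. In edgeR's quasi-likelihood test, adjusted after Benjamini and Hochberg over all genes, 0 of the 7 had an adjusted p under 0.05, where 0% of the 14358 genes tested did, and 0 of 7 had an unadjusted p under 0.05, where 1.88% of all genes did (1.14% higher and 0.738% lower in AM6545). In none of the 7 did the groups separate, against 0.293% of all genes. 3 genes lay above 0 and 4 below, with a median log2 fold change of -0.0011 against -0.0057 over all genes tested.

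Among the secreted proteins, Dcn had the largest estimated difference of the 7. Its vehicle libraries 1 to 5 held 189, 106, 94.2, 147 and 145 CPM, and its AM6545 libraries 1 to 5 held 163, 157, 166, 159 and 127 CPM. Vehicle replicate 1 was the highest of all 10 and vehicle replicates 2 and 3 the lowest, so the AM6545 libraries lay inside the vehicle range. The means were 136 ± 37.6 and 154 ± 15.8 CPM (SD over 5 libraries each). The log2 fold change of Dcn was 0.18 ± 0.15 (standard error; 95% interval -0.15 to 0.51; edgeR unadjusted p = 0.260, adjusted p = 0.9998). Dcn depended on single libraries: without vehicle replicate 1 the value was 0.33 (edgeR unadjusted p = 0.0226, adjusted p = 0.9994) and without vehicle replicate 3 it was 0.07 (edgeR unadjusted p = 0.614). The other secreted protein, Ccn3, was present at 255, 234, 179, 249 and 234 CPM in vehicle libraries 1 to 5 and at 228, 207, 234, 270 and 193 CPM in AM6545 libraries 1 to 5. The groups overlapped almost wholly, with vehicle replicate 3 the lowest and AM6545 replicate 4 the highest. The log2 fold change of Ccn3 was -0.02 ± 0.12 (standard error; 95% interval -0.27 to 0.22; edgeR unadjusted p = 0.836).

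For the enzymes and membrane proteins of the secretory pathway, Wfs1 varied widely within both groups. Wfs1 stood at 105, 120, 176, 148 and 143 CPM in vehicle libraries 1 to 5 and at 145, 119, 192, 167 and 106 CPM in AM6545 libraries 1 to 5. Each group thus held libraries near the lowest and near the highest value. Wfs1 had a log2 fold change of 0.07 ± 0.16 (standard error; 95% interval -0.27 to 0.41; edgeR unadjusted p = 0.659). Man1a had 35.9, 61.0, 55.5, 54.9 and 50.5 CPM in vehicle libraries 1 to 5 and 49.9, 47.5, 56.4, 57.5 and 55.1 CPM in AM6545 libraries 1 to 5. Vehicle replicate 1 was low and vehicle replicate 2 was the highest of the 10. For Man1a the log2 fold change came to 0.05 ± 0.12 (standard error; 95% interval -0.21 to 0.31; edgeR unadjusted p = 0.703). The receptor gene Fibcd1 had 121, 101, 127, 114 and 109 CPM in vehicle and 130, 107, 125, 118 and 91.0 CPM in AM6545 libraries 1 to 5. Its group means, 114 ± 10.3 and 114 ± 15.7 CPM (SD, n = 5 each), were nearly equal, and the log2 fold change of -0.0011 had a 95% interval of -0.23 to 0.23 (edgeR unadjusted p = 0.992).

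The transcription factor gene Pou3f1 was at 77.7, 58.8, 49.8, 60.6 and 47.6 CPM in vehicle libraries 1 to 5 and at 55.7, 54.9, 59.2, 62.6 and 51.9 CPM in AM6545 libraries 1 to 5. Vehicle replicate 1 was the highest of the 10 and vehicle replicate 5 the lowest. For Pou3f1 the log2 fold change came to -0.05 ± 0.12 (standard error; 95% interval -0.31 to 0.21; edgeR unadjusted p = 0.685). An exon of Gm2164 overlaps Pou3f1 on the opposite strand, as one of Gm16998 does for Man1a, and the use of strand in counting is not given in the sources used here. Mpped1 had 185, 243, 198, 214 and 214 CPM in vehicle and 225, 201, 182, 216 and 209 CPM in AM6545 libraries 1 to 5. It was the steadiest of the 7, its highest library 1.34-fold above its lowest, and its log2 fold change was -0.03 ± 0.098 (standard error; 95% interval -0.24 to 0.18; edgeR unadjusted p = 0.774). Over the 7 genes the interval bounds ran from 0.807-fold (Pou3f1) to 1.42-fold (Dcn), and changes inside these bounds cannot be set apart from none with 5 libraries a group.

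**Figure D1:**
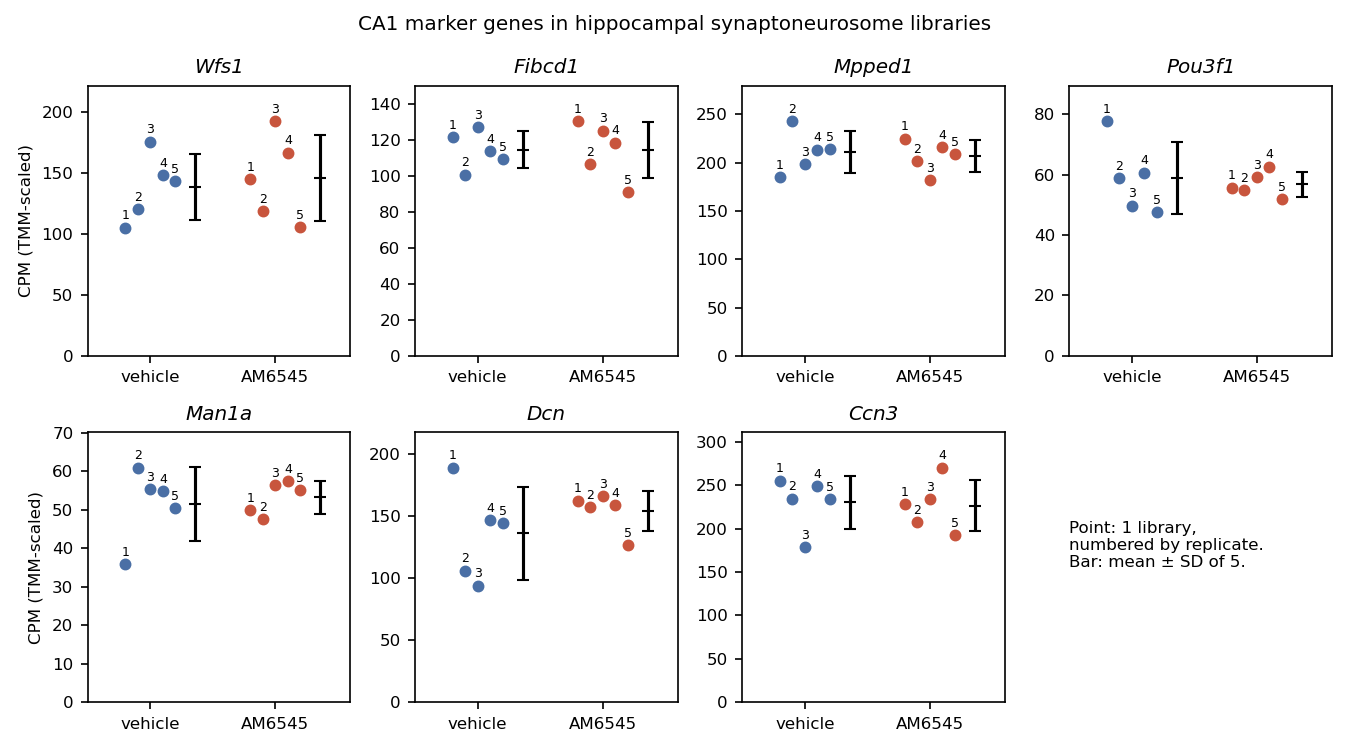
Level of each CA1 marker gene in CPM scaled by TMM (y axes, from 0) in vehicle and AM6545 libraries (x axes). Points are single libraries numbered by replicate and bars are mean ± SD of 5; the groups overlap in all 7 panels, and vehicle replicate 1 is highest for Dcn (189 CPM) and Pou3f1 (77.7 CPM) and lowest for Wfs1 (105 CPM) and Man1a (35.9 CPM).

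**Figure D2:**
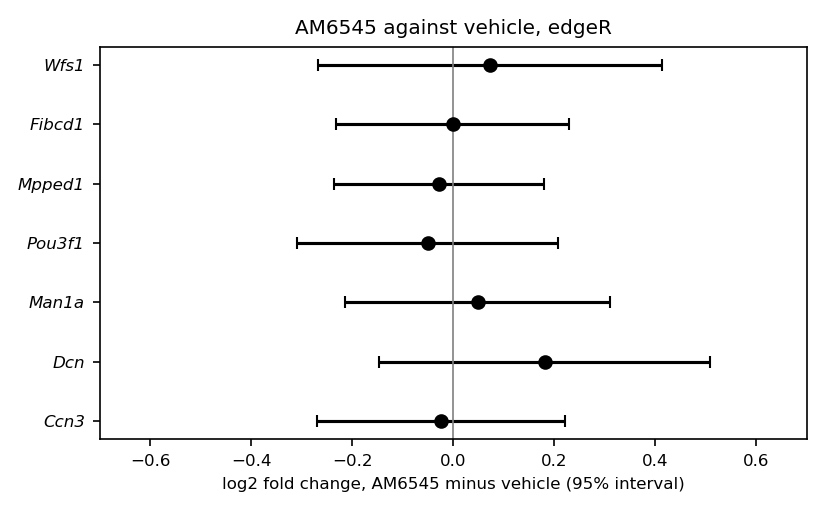
Log2 fold change of AM6545 against vehicle for the 7 genes from edgeR (x axis), with points for estimates and bars for 95% intervals. All 7 intervals include 0, and Dcn lies farthest from it at 0.18.

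The spread between single libraries differed from gene to gene. A highest-to-lowest ratio can never fall below the ratio of the group means, so no comparison with the drug difference is drawn. The highest library exceeded the lowest 2.01-fold for Dcn, 1.83-fold for Wfs1, 1.70-fold for Man1a, 1.63-fold for Pou3f1, 1.51-fold for Ccn3, 1.43-fold for Fibcd1 and 1.34-fold for Mpped1. edgeR's biological coefficient of variation, the spread between libraries of a group beyond counting error, was 0.181 for Wfs1 and 0.175 for Dcn, above 71.2% and 68.6% of the genes tested. It was 0.115 for Mpped1, above 11.3% of them, and the median over all genes was 0.148. The dorsal marker Wfs1 and the ventral marker Dcn lay far apart in vehicle replicates 1 and 3. The log2 ratio of Dcn to Wfs1 was 0.85 in vehicle replicate 1 and -0.90 in vehicle replicate 3. It was between -0.21 and 0.41 in the other 8 libraries. Opposite movement was not general: Pearson r of their log2 CPM was -0.096 over all libraries (permutation p = 0.790). With vehicle libraries alone r was negative (-0.63), while with AM6545 libraries alone the genes rose together (0.78).

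The 7 genes did not rise and fall as a block. Over the 10 libraries the 21 pairs had Pearson r of log2 CPM from -0.61 (Man1a and Dcn) to 0.67 (Pou3f1 and Ccn3), with 11 pairs above 0 and 10 below. Their median r was 0.062, beside -0.003 over all pairs of tested genes, whose 5th and 95th percentiles were -0.658 and 0.677. 0 of 21 pairs had a Benjamini-Hochberg adjusted permutation p under 0.05, and 3 had an unadjusted p under 0.05, all of them positive. Those 3 had r from 0.647 to 0.667, inside the percentiles over all pairs. An r of at least 0.664 in size, in either direction, was held by 10.3% of all pairs of tested genes.

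The 2 secreted proteins and the transcription factor made up a pair of these relations. Pou3f1 and Ccn3 had r = 0.667 (permutation p = 0.0351, adjusted over 21 pairs 0.306) and Spearman rho = 0.855 (permutation p = 0.00284, adjusted 0.0596). Without vehicle replicates 1 and 5, the libraries farthest from the median of Pou3f1, r was 0.983 (permutation p = 3.0e-05). That p-value is not adjusted, and the libraries were left out by their Pou3f1 values. Leaving out 1 library at a time, r ran from 0.610 to 0.806 and the adjusted permutation p from 0.126 to 0.445. Dcn and Ccn3 had r = 0.647 (permutation p = 0.0418, adjusted 0.306) and rho = 0.515 (permutation p = 0.134, adjusted 0.561), and without vehicle replicates 2 and 3, the farthest for Dcn, r was 0.600 (permutation p = 0.110). This relation leaned on vehicle replicate 3, the lowest library of both genes, without which r was 0.371. Pou3f1 and Dcn had r = 0.575 (permutation p = 0.0839, adjusted 0.352) and rho = 0.661 (permutation p = 0.0440, adjusted 0.462). Without vehicle replicates 1 and 5 their r was 0.558 (permutation p = 0.152).

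Wfs1 and Fibcd1, the pair of membrane proteins, had r = 0.648 (permutation p = 0.0437, adjusted over 21 pairs 0.306) and rho = 0.576 (permutation p = 0.0884, adjusted 0.561). Without vehicle replicate 1 and AM6545 replicate 5, the farthest for Wfs1, r was 0.775 (permutation p = 0.0266, not adjusted). Both genes were low in AM6545 replicate 5 and high in vehicle replicate 3 and AM6545 replicate 3. Man1a and Dcn gave the most negative value, r = -0.606 (permutation p = 0.0690, adjusted 0.352; rho = -0.430, permutation p = 0.221, adjusted 0.662), and without vehicle replicate 1 and AM6545 replicate 2 r was -0.411 (permutation p = 0.305). In vehicle replicate 1 Man1a was at its lowest and Dcn at its highest.

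**Figure D3:**
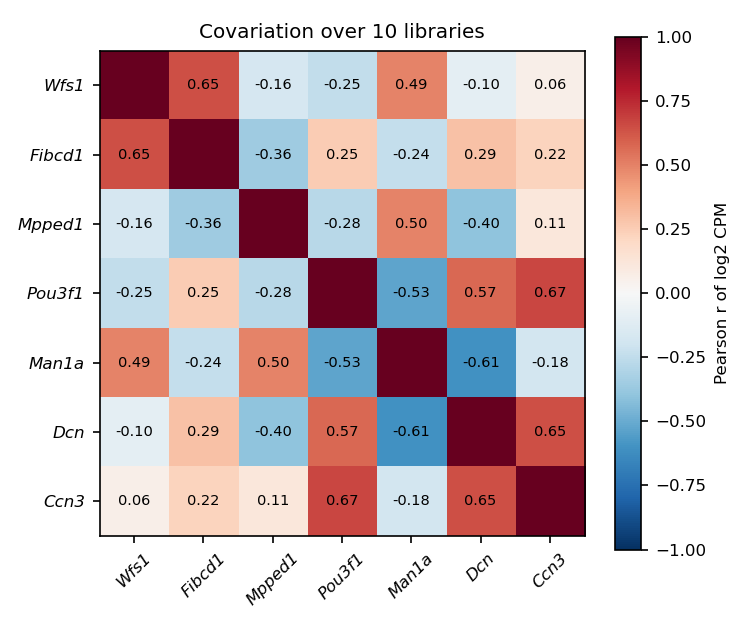
Pearson r of log2 CPM over the 10 libraries for each pair of the 7 genes (rows and columns are genes, colour runs from -1 in blue to 1 in red, and the diagonal is each gene with itself). The highest of the 11 positive values are Pou3f1 with Ccn3 (0.67), Wfs1 with Fibcd1 (0.65), Dcn with Ccn3 (0.65) and Pou3f1 with Dcn (0.57). Fibcd1, Pou3f1, Dcn and Ccn3 are all positive with each other. Man1a is negative with each of them, lowest with Dcn (-0.61), and positive with Mpped1 (0.50) and Wfs1 (0.49).

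The levels were then set beside markers of other cell types, since Dcn is also a defining gene of meningeal and perivascular fibroblasts and Wfs1 RNA is also known from other cells. Of 63 relations between the 7 genes and 9 measures (the log2 library total and the mean log2 CPM of 8 marker lists) 1 passed the adjusted threshold. Wfs1 rose with the mean of 7 astrocyte markers, at r = 0.896 (permutation p = 0.00030, adjusted over 63 relations 0.0189) and rho = 0.891 (permutation p = 0.00113, adjusted 0.0712). Without vehicle replicate 1 and AM6545 replicate 3, the farthest for the astrocyte mean, r was 0.799 (permutation p = 0.0143), and after subtraction of the group means it was 0.906. The adjusted p missed the threshold in 6 of the 10 recalculations that left out 1 library, with r from 0.850 to 0.935. How many of all tested genes had so high an r with the astrocyte mean is not given here. The relation is thus not shown to be particular to Wfs1, nor to astrocyte markers among those of glia. Wfs1 also had r = 0.657 with the oligodendrocyte mean (permutation p = 0.0346, adjusted 0.927; rho = 0.588, permutation p = 0.0809). The microglia list was not among the 9 measures.

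The astrocyte mean spanned 7.88 to 8.11 log2 CPM in vehicle and 7.90 to 8.29 in AM6545 libraries. It was lowest in vehicle replicate 1 and AM6545 replicate 5 and highest in AM6545 replicate 3, as Wfs1 was. Among the 7 astrocyte genes, the glutamate transporter gene Slc1a3 had r = 0.781 with Wfs1 (permutation p = 0.00845, adjusted over 7 genes 0.0566; rho = 0.782, permutation p = 0.0109, adjusted 0.0380; r = 0.567 without vehicle replicate 1 and AM6545 replicate 5, the farthest for Wfs1). The gap junction gene Gja1 had r = 0.699 (permutation p = 0.0162, adjusted 0.0566; rho = 0.806, permutation p = 0.00765, adjusted 0.0380; r = 0.579 without those 2). Aldoc (r = 0.136) and Aldh1l1 (r = 0.274) had little relation to it (permutation p = 0.703 and 0.436), and Wfs1 did not follow the 7 genes alike. With the astrocyte mean as a covariate, a setting added after seeing the data, the log2 fold change of Wfs1 was -0.09 (edgeR unadjusted p = 0.361). The part of astrocyte RNA in the Wfs1 values was not tested.

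No relation of Dcn to the fibroblast markers was called. Of 10 such genes, 0 had an adjusted p under 0.05 with Dcn, and r ran from -0.27 (Ogn) to 0.30 (Slc22a6), with every adjusted permutation p at 0.886. The fibroblast mean differed widely between libraries, from 1.26 log2 CPM in vehicle replicate 4 to 3.78 in vehicle replicate 2. Dcn was at 147 CPM in the first of these and at 106 CPM in the second. In vehicle replicate 1, which had the second highest fibroblast mean at 3.61, Dcn was at its highest, 189 CPM. Per length the 10 fibroblast genes averaged from 0.342 TPM (Col1a1) to 161 TPM (Igfbp2), beside 160 TPM for Dcn. Igf2 averaged 23.9 TPM and the other 8 at most 9.01 TPM. The part of fibroblast RNA in the Dcn values was not tested. None of the 10 was at 0, and Lum, a proteoglycan related to decorin, spanned 7.11 to 15.4 CPM.

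**Figure D4:**
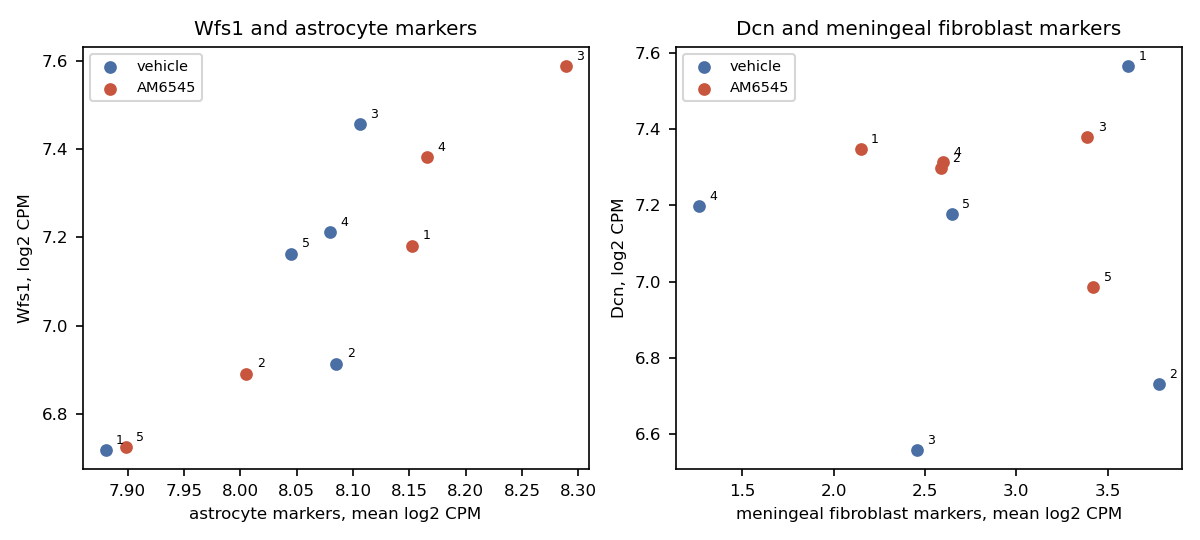
Left: Wfs1 (y axis, log2 CPM) against the mean log2 CPM of 7 astrocyte markers (x axis), r = 0.896. Right: Dcn (y axis, log2 CPM) against the mean log2 CPM of 10 meningeal fibroblast markers (x axis), which shows no common rise; points are the 10 libraries, coloured by group and numbered by replicate.

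Transcript estimates showed 1 dominant form for each gene. Fibcd1, Pou3f1 and Ccn3 had a single transcript in the table. Wfs1-201 held a mean of 97.95% of the Wfs1 counts, Dcn-201 95.5% of those of Dcn, Man1a-201 93.4% of those of Man1a and Mpped1-201 93.2% of those of Mpped1. With edgeR's test on all transcripts, these 4 had log2 fold changes of 0.10, 0.20, 0.04 and -0.01 (edgeR unadjusted p = 0.637, 0.259, 0.745 and 0.916), and 0 of 4 passed, where 0.00314% of 31848 transcripts had an adjusted p under 0.05 and 1.97% an unadjusted p under 0.05. The value for Dcn-201 moved with single libraries, to 0.34 without vehicle replicate 1 (edgeR unadjusted p = 0.0443), 0.12 without vehicle replicate 2 and 0.11 without vehicle replicate 3.

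The minor forms were uneven between libraries. Wfs1-202 was estimated at 343 counts, 15.8% of the gene, in vehicle replicate 1, at 30 to 41 counts in vehicle replicate 3 and AM6545 replicates 2 and 5, and at 0 in the other 6 libraries. It starts 272 bases from Wfs1-201 in GENCODE M21, inside the Wfs1 window printed above, and 99.3% of its 31-base words also occur in Wfs1-201. Only 24 words set it apart, so the split between the 2 forms rests on little sequence. Man1a-203 was at 0 in 4 libraries and at 58 to 150 counts in the other 6, in both groups. The Mpped1 form Mpped1-204, annotated as a target of nonsense-mediated decay, was present in all 10 libraries at 3.70% to 10.1% of the gene, and Dcn-202, which has its own start 2758 bases from that of Dcn-201, at 0.551% to 7.31%. Mpped1-203, which starts at a second RefSeq start of the gene, had 73 counts in vehicle replicate 1 and 0 in the other 9 libraries.

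**Figure D5:**
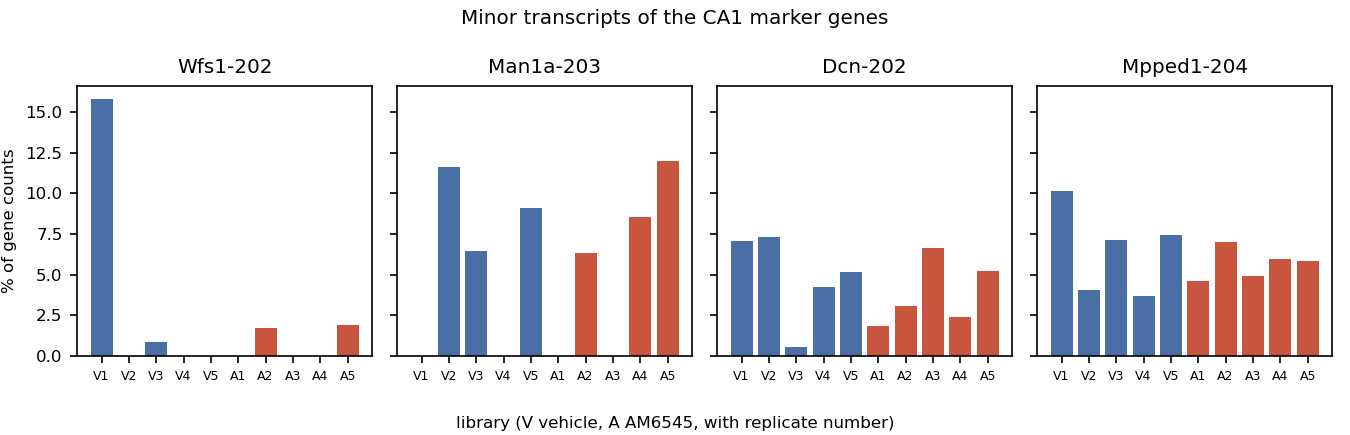
Share of a gene's estimated counts (y axis, percent, from 0) held by a minor transcript of Wfs1, Man1a, Dcn or Mpped1 in each library (x axis; V vehicle and A AM6545 with the replicate number). Wfs1-202 reaches 15.8% in vehicle replicate 1 and at most 1.92% elsewhere.

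The other gene lists gave no AM6545 call either. Of 113 genes in 13 lists, 110 were tested, 0 had an adjusted p under 0.05 in edgeR and 2 (1.82%) had an unadjusted p under 0.05, beside 1.88% of all genes, with a median log2 fold change of -0.01. The 2 were Aldh1l1 and Cux2. Aldh1l1, an enzyme gene of astrocytes, averaged 67.2 ± 6.26 CPM (SD) with vehicle against 81.2 ± 8.52 with AM6545, a log2 difference of 0.27 ± 0.10 (standard error; edgeR unadjusted p = 0.0147, adjusted p = 0.9998). Cux2, a homeobox gene of upper cortical layers, averaged 3.19 ± 0.456 CPM with vehicle against 4.11 ± 0.596 with AM6545, a log2 difference of 0.37 ± 0.17 (standard error; edgeR unadjusted p = 0.0431, adjusted p = 0.9998). Of 8 other CA1 genes, 0 passed in either direction and 6 lay below 0, with a median of -0.07. Dentate granule genes had the same median, -0.07 over 8 genes, and CA2 and CA3 genes -0.0075 over 9 tested.

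Close relatives of the 7 proteins differed in level from them. Per length, Pou3f3 averaged 8.79 TPM, Pou3f2 1.70 TPM and Pou3f4 0.861 TPM, against 29.1 TPM for Pou3f1. Ccn3 averaged 154 TPM, while Ccn2, Ccn1 and Ccn4 averaged 14.4, 5.83 and 0.953 TPM. Mpped2 averaged 50.9 TPM against 126.9 TPM for Mpped1. In the mannosidase family the order was less marked, with Man1a2 at 22.7 TPM, Man1a at 21.2 TPM, Man1c1 at 12.1 TPM and Man1b1 at 8.73 TPM. Among the 14 relatives tested 0 passed in either direction, with a median log2 fold change of 0.05.

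The genes most like each marker in their course over the libraries were other than the CA1 markers. Likeness was Pearson r of log2 CPM after subtraction of the group means, over 10 libraries and 11524 genes of at least 2 log2 CPM on average, and a maximum over so many genes is high by selection. For Wfs1 they were Glg1 (0.976) and Ptprz1 (0.975), for Fibcd1 Slc29a2 and Gpr89 (both 0.967), for Mpped1 6430548M08Rik (0.973) and Lzts3 (0.966), and for Pou3f1 Hgh1 (0.933) and Tsen54 (0.924). For Man1a Parp11 (0.986) is given, for Dcn they were Ints1 (0.970) and Slc25a26 (0.921), and for Ccn3 Ccdc88c (0.924) and Sike1 (0.914). Of the CA1 markers, Dcn came 45th and Pou3f1 97th in the order for Ccn3, and Fibcd1 1053rd in that for Wfs1. Others came far down: Man1a was 8735th for Ccn3 and 11223rd for Dcn, and Pou3f1 7363rd for Wfs1.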

How the data were processed

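Total RNA of hippocampal synaptoneurosomes went into SMARTer libraries (a low-input chemistry), per the labels' protocols. For both genes and transcripts the authors deposited estimated counts. Salmon 1.5.2 and mm10 are named in the submitters' processing notes, and the annotation release is not given in the sources used here. Estimated counts were rounded. edgeR 4.0.16 in R 4.3.3 was run over all genes or transcripts with TMM, filterByExpr (minimum count 10, minimum total 15), robust quasi-likelihood dispersions and a design with the group alone, with Benjamini-Hochberg adjustment at 0.05 and two-sided tests. TPM was computed from transcript counts and GENCODE M21 lengths (101527 of 102392 transcripts matched). In 21345 of 22255 genes the deposited identifier is 1 version above M21, so the counts may rest on another release than the lengths, starts and shared words given here. Symbols were assigned to 22155 of 22255 genes. Correlations used log2 CPM (prior count 2) and two-sided permutation tests with 100000 resamples, in Python 3.11.15 with scipy 1.17.1.

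Named genes were the 7 markers, up to 3 genes per list with an unadjusted p under 0.05, relatives of the markers, the 2 genes most like each marker, and marker transcripts of at least 10% of their gene. 1 gene that this rule names for Man1a is not reported here. Minor transcripts, other list genes and the covariate of astrocyte markers were chosen after values were seen. The 7 genes and all lists were chosen with earlier results of these data known. Alternatives were DESeq2 1.42.0 size factors and Wald test, total count scaling, limma-voom (limma 3.58.1), 2 other filters, 3 marker covariates, the replicate number as a block, group-centred values, a prior count of 0.5 and leaving out each library. The replicate numbers come from the titles, and no batch is labelled. In simulated counts over 14358 genes the test called 49.0% of genes changed 1.5-fold and 81.2% changed 2-fold. Each simulation changed 200 genes, drawn at random from all tested genes, by 1.25-fold to 3-fold. These rates depend on that setting and need not hold for the 7 genes. Intervals cover neither amplification nor the error of dividing reads between transcripts.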

Additional observations from a re-analysis of the deposited data

Results flagged for a closer look

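In 7 of 56 sets of 5 libraries, 1 library lay far from its group, by the size of its gap to the next over the whole range (Dixon's ratio), and chance flags about 1 in 20 groups, or 2.8. They were the levels of 2 CA1 markers, Dcn and Ccn3, the split of Wfs1 into 2 transcripts, and 3 marker means. Dcn was at 6.99 log2 CPM in AM6545 replicate 5, with the other AM6545 libraries at 7.30 to 7.38. Ccn3 was at 7.48 log2 CPM in vehicle replicate 3, with the other vehicle libraries at 7.87 to 7.996. Wfs1-201 held 84.0% of the Wfs1 counts in vehicle replicate 1 and 99.1% to 100% in the other vehicle libraries, and Wfs1-202 held 15.8% there and 0% to 0.885% in the others, which is the same split seen from both sides.

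The astrocyte mean was at 7.88 log2 CPM in vehicle replicate 1, with the other vehicle libraries at 8.05 to 8.11, and Wfs1 was at its lowest in the same library. The oligodendrocyte mean was at 8.82 log2 CPM in vehicle replicate 3, with the others at 8.41 to 8.52. The choroid plexus mean was at 1.34 log2 CPM in vehicle replicate 4, with the others at 5.75 to 6.26. In that library none of the 7 CA1 markers was the highest or the lowest of its group.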

How the results depend on the processing

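The absence of a call among the 7 genes held in all 20 alternative fits of the gene table, while signs did not. The sign reversed for Fibcd1 with total count scaling (0.0068), no filter (0.00036), the fibroblast mean as covariate (0.0024) and limma-voom with quality weights (0.014). limma-voom also reversed Ccn3 (0.083), Wfs1 (-0.0062) and Pou3f1 (0.14), and it gave Dcn 0.29 (limma unadjusted p = 0.0448, adjusted p = 0.915). The astrocyte mean as covariate reversed Wfs1 (-0.093). Leaving out 1 library at a time, log2 fold changes ran from -0.057 to 0.12 for Man1a, -0.060 to 0.071 for Fibcd1, -0.10 to 0.029 for Ccn3, -0.047 to 0.17 for Wfs1, -0.072 to 0.028 for Mpped1, -0.12 to 0.069 for Pou3f1 and 0.074 to 0.33 for Dcn, and from -0.072 to 0.057 for Mpped1-201, -0.049 to 0.089 for Man1a-201, -0.027 to 0.21 for Wfs1-201 and 0.11 to 0.34 for Dcn-201. The cause was not tested.

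Over all genes, 0 were called, 1 with limma-voom (Insc) and 0 to 1 without 1 library (Gm28048 without vehicle replicate 3, Insc without AM6545 replicate 3). Unadjusted p under 0.05 was met by 270 genes, 276 with the DESeq2 Wald test and 706 with limma-voom. Of transcripts 1 was called (Srrm1-202), 0 with at least 10 counts in every library, 0 with the replicate block and 0 to 4 without 1 library. These names were chosen after their values were seen. With the replicate number as a block 0 genes were called, and the value for Dcn was 0.22 (edgeR unadjusted p = 0.183). Deviations of same-numbered libraries correlated at -0.14, -0.19, 0.23, 0.39 and 0.065, above the highest value with another number in 3 of 5, and not all over 0.1, so the numbers were not taken as pairs. The count of called pairs among the 7 genes was 0 in all 3 other settings and without any 1 library, where the median r ran from -0.13 to 0.24. The relation of Wfs1 to the astrocyte mean kept r at 0.850 to 0.935 without 1 library, and its adjusted p reached 0.256 without AM6545 replicate 3. With 5 libraries a group, changes of small size are under the limit of detection.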

Other observations

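The other CA1 genes gave values beside the 7 markers. Grp, which encodes gastrin-releasing peptide and is known from ventral CA1, averaged 25.3 ± 7.33 CPM (SD) with vehicle against 25.98 ± 1.03 with AM6545 (log2 difference 0.04; edgeR unadjusted p = 0.810, adjusted p = 0.9998). Of 56 relations between the 7 markers and 8 other CA1 genes, 9 (16.1%) had an unadjusted permutation p under 0.05 and 0 an adjusted p under 0.05. The smallest r among these 9 was 0.664 in size, and 10.3% of all pairs of tested genes had an r of at least that size, in either direction. Grp and Pou3f1 gave the highest value (r = 0.808, permutation p = 0.00844, adjusted 0.195; rho = 0.624, permutation p = 0.0603; r = 0.333 without vehicle replicates 1 and 5, so the relation rests on those libraries). Grp and Dcn, both ventral genes, came next among positive values (r = 0.758, permutation p = 0.0104, adjusted 0.195; rho = 0.721, permutation p = 0.0231; r = 0.654 without vehicle replicates 2 and 3). Within groups r of Grp and Dcn was 0.833 in vehicle and -0.048 in AM6545 libraries. Tenm3, a teneurin adhesion gene, gave a positive value with Fibcd1 (r = 0.743, permutation p = 0.0139, adjusted 0.195; rho = 0.442, permutation p = 0.204; r = 0.213 without vehicle replicate 2 and AM6545 replicate 5, so it rests on those libraries) and with Wfs1 (r = 0.710, permutation p = 0.0229, adjusted 0.226; rho = 0.576, permutation p = 0.0885; r = 0.782 without vehicle replicate 1 and AM6545 replicate 5). For Spink8, a protease inhibitor gene of CA1, and Man1a it was negative (r = -0.783, permutation p = 0.00507, adjusted 0.195; rho = -0.770, permutation p = 0.0129; r = -0.325 without vehicle replicate 1 and AM6545 replicate 2). Grp and Man1a were also negative (r = -0.773, permutation p = 0.0250, adjusted 0.226; r = -0.042 without those 2 libraries). The rest of the 9 were Itpka with Pou3f1 (r = 0.672) and with Man1a (r = -0.669), and Spink8 with Mpped1 (r = -0.664).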
